A study of Mus musculus with 12 samples.

Results

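The genes described are 9 regulators tied to the response of skeletal muscle to loss of its nerve supply or to remodelling of its fibres. They are Gadd45a, Cdkn1a, Runx1, Myog, Myod1, Myf6, Hdac4, Hdac9 and Ncam1. They were taken by name, and each matched a single identifier among the 55416 gene identifiers of the deposited tables. Hdac4 and Hdac9 are class IIa histone deacetylases, which repress the targets of MEF2 factors, and in innervated muscle electrical activity keeps Hdac4 low. After denervation Hdac4 accumulates and represses genes that hold down myogenin, and myogenin in turn drives acetylcholine receptor genes and the ubiquitin ligases Trim63 and Fbxo32. Gadd45a, which Hdac4 induces in denervated muscle, and Cdkn1a, the p21 cell cycle inhibitor, have both been tied to fibre atrophy, Runx1 is known to sustain denervated muscle, and Ncam1 spreads from the neuromuscular junction over the surface of a denervated fibre.

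RNA was measured in the gastrocnemius, a calf muscle, and in the hypothalamus of 6 male BALB/c mice, labelled as 7 weeks old. In the CT-26 group, 3 mice carried tumours of CT-26, a colon carcinoma line from mouse, grown from cells placed beneath the abdominal skin. The control group was 3 mice without a tumour injection. No mouse carried an engineered allele or received another agent in the labels. Tumour-bearing mice had lost 7 to 10% of body weight relative to healthy mice by day 10, and their tissues were taken on day 25; a collection day for the controls is not given in the labels. The labels record no cut nerve and no measurement of innervation, so loss of nerve supply was not part of the design.

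Each of the 4 groups held 3 libraries, 1 per mouse and tissue, with 26015741 to 42771331 expected counts per library in the gastrocnemius and 27195316 to 52535761 in the hypothalamus. Replicates were separate mice, so p-values measure the spread between mice. Muscle fibre markers such as Ckm and Acta1 summed to 82910 to 137419 CPM (counts scaled to a common library size after TMM normalisation) in CT-26 muscle and 134489 to 173242 CPM in control muscle. In the hypothalamus they summed to 24.2 to 50.5 CPM in CT-26 libraries and 24.2 to 34.5 CPM in control libraries, and 10 hypothalamic peptide genes summed to 2185 to 2604 CPM in CT-26 libraries and 1544 to 1810 CPM in control libraries. Each labelled tissue thus carried its defining markers. In these bulk samples, fewer cells of a type and less RNA per cell cannot be told apart.

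The promoters of Gadd45a, Cdkn1a and Runx1, the members that rose most among those called, and of Myog, which did not pass the test but stands at the centre of the pathway, are shown because the myogenic bHLH proteins Myog, Myod1 and Myf6 bind the E-box, CANNTG, and are known to act on one another's genes. The sequences are RefSeq's on GRCm38.p6 and run 5′ to 3′ from 250 bases before to 50 bases after an annotated start site, with every CANNTG in capitals.
Myog, chr1:134289754-134290053, plus strand: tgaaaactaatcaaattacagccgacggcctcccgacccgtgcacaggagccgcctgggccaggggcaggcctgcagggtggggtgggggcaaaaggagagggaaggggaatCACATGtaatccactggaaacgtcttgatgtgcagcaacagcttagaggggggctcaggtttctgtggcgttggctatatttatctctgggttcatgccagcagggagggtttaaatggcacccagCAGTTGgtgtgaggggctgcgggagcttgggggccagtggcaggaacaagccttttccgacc
Gadd45a, chr6:67037358-67037657, minus strand: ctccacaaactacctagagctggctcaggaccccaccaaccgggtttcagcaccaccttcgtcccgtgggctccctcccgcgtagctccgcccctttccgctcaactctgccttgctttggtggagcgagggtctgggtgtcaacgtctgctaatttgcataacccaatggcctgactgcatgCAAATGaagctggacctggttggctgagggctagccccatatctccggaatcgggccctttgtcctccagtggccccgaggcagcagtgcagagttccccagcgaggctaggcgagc
Cdkn1a, first start, chr17:29090729-29091028, plus strand: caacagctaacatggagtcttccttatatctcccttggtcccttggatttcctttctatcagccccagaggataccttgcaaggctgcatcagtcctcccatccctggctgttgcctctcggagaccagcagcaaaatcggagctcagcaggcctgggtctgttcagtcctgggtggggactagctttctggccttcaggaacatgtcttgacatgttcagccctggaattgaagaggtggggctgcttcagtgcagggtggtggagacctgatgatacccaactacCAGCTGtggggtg
Cdkn1a, second start, chr17:29093519-29093818, plus strand: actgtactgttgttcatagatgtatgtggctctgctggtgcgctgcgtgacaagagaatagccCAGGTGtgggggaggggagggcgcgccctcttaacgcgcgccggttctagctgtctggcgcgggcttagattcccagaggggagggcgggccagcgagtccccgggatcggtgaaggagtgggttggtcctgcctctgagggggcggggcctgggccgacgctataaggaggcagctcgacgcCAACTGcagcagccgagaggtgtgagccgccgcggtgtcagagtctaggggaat
Runx1, distal start, chr16:92826025-92826324, minus strand: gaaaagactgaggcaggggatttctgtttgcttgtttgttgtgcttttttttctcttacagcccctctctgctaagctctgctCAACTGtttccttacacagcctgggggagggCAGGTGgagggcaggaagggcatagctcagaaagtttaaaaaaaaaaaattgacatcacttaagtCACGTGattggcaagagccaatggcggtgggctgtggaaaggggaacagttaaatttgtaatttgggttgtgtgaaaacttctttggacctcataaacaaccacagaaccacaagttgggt
Runx1, proximal start, chr16:92697280-92697579, minus strand: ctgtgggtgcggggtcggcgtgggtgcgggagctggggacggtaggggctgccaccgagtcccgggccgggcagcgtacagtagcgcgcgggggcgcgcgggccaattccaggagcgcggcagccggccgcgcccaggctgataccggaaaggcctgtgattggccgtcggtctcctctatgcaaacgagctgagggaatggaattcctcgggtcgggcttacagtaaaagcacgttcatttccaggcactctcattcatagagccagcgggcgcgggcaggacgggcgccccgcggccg

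The Myog window held 2 E-boxes, CACATG beginning 138 bases and CAGTTG beginning 12 bases before the start site. The Gadd45a window held 1, CAAATG, beginning 67 bases before the start. The first Cdkn1a start had CAGCTG beginning 37 bases after it, and the second had CAGGTG beginning 187 bases and CAACTG beginning 4 bases before it. Of the Runx1 windows, the distal one held 3, beginning 167, 136 and 71 bases before the start, and the proximal one none. CANNTG reads the same on both strands in this search and occurred in 72.3% of all 32851 promoter windows, so its presence does not set these genes apart. CAGCTG, a subset of CANNTG, occurred in 16.3% of windows. The RUNX motif TGTGGT, searched on both strands, occurred in 16.8% of windows and stood as ACCACA at 2 places in the distal Runx1 window, beginning 28 and 36 bases after the start. The MEF2 consensus was searched on both strands as YTAWWWWTAR, where Y is C or T, W is A or T and R is A or G. This strict pattern was found in 3.19% of windows and in none of the 9 member windows. The Myog window held ctatatttat, which differs from the pattern only in its last base, so the search does not show that MEF2 sites are absent. RefSeq promoters were matched for 6 of the 9 members, Gadd45a, Cdkn1a, Runx1, Myog, Hdac4 and Hdac9. The other 3 were Myod1, Myf6 and Ncam1.

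In the gastrocnemius, 4 of the 9 members rose in CT-26 mice (Cdkn1a, Runx1, Gadd45a and Myf6), 2 fell (Myod1 and Hdac4) and 3 did not pass the test (Myog, Hdac9 and Ncam1). The test was edgeR's quasi-likelihood test with Benjamini-Hochberg adjustment over all 14265 genes tested, and genes with an adjusted p under 0.05 are described as called. Calls were common in this muscle: 38.0% of tested genes were called, 19.6% as higher and 18.3% as lower in CT-26. The median log2 fold change was 0.57 over the 9 members and -0.0015 over all tested genes. The CT-26 and control libraries did not overlap in CPM for 6 of the 9 members, and for 51.7% of all tested genes. No member changed sign in the gastrocnemius under any of 13 alternative settings, but the calls of Myod1 and Hdac4 depended on how libraries were scaled, as given with each gene below.

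**Figure D1:**
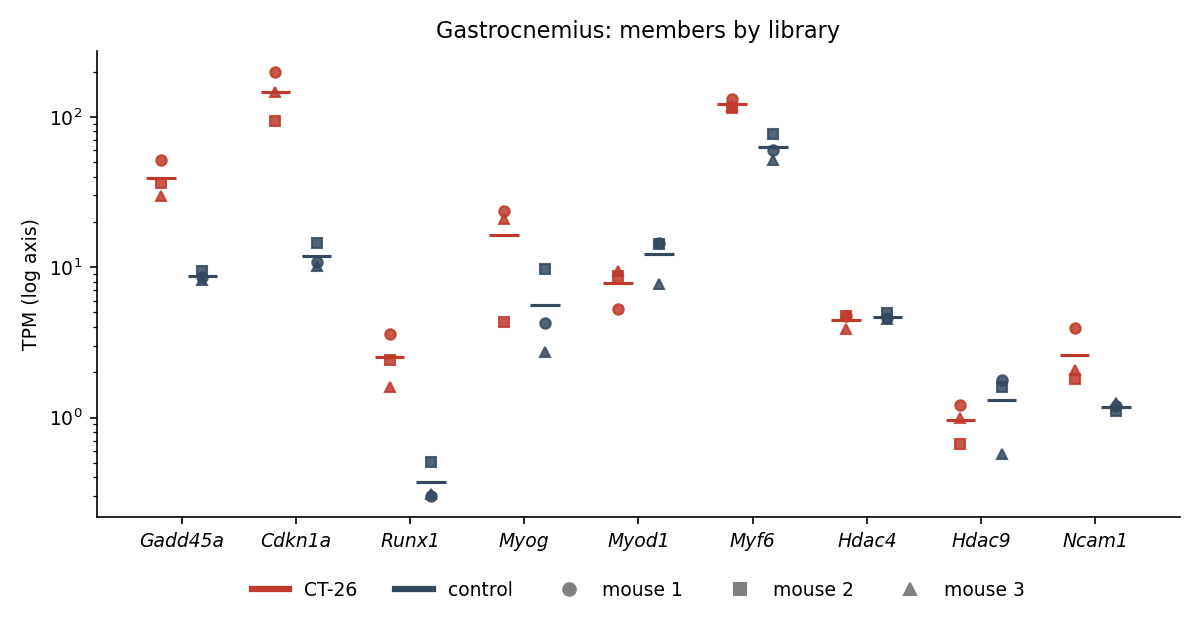
TPM (transcript level per length; log axis) of the 9 members in each gastrocnemius library, CT-26 in red left of control in dark blue, with marker shapes for mice 1 to 3 and a bar at each mean. Cdkn1a, Gadd45a, Runx1, Myf6 and Ncam1 show no overlap between the groups on this scale, while Myog spreads from 4.34 to 23.8 TPM within the CT-26 group.

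Cdkn1a (ENSMUSG00000023067, chromosome 17, 29090976 to 29100727, plus strand, GRCm38) had the largest change among the members. It had 249, 144 and 225 CPM in CT-26 mice 1 to 3, against 18.7, 26.3 and 20.9 CPM in control mice 1 to 3. Every CT-26 library was above every control library. The log2 fold change was 3.23 (SE 0.24, n = 3 mice per group, edgeR adjusted p = 0.000162), a 9.38-fold rise, and it ran from 3.07 to 3.56 over the alternatives. Per length, as TPM, Cdkn1a ranked first among the members in CT-26 muscle, at 146 ± 52.2 TPM, and behind Myf6 and Myod1 in control muscle, at 11.9 ± 2.38 TPM (SD, n = 3). Its overlapping opposite-strand annotation, AC167363.2, had at most 8.0 counts in any gastrocnemius library.

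Gadd45a (ENSMUSG00000036390, chromosome 6, 67035096 to 67037457, minus strand), a stress-induced partner of p21 and PCNA, had 37.2, 31.2 and 26.2 CPM in CT-26 mice, against 8.29, 9.49 and 9.70 CPM in control mice. The groups were well apart and the controls lay within a narrow band. The log2 fold change was 1.78 (SE 0.16, edgeR adjusted p = 0.00028), a 3.44-fold rise, with a range of 1.65 to 2.11 over the alternatives. E230016M11Rik, which overlaps Gadd45a on the opposite strand, had at most 19.1 counts in a gastrocnemius library, against 227 counts in the lowest Gadd45a library. The rise of Cdkn1a was larger than that of Gadd45a within libraries as well. The TPM ratio of Cdkn1a to Gadd45a was 3.85, 2.62 and 4.90 in CT-26 muscle and 1.27, 1.55 and 1.23 in control muscle, without overlap (two-sided exact permutation p = 0.1, the smallest that 3 mice against 3 can give).

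The p53 target, GADD45 and CDK inhibitor genes moved both ways around these members. Of 24 listed genes 23 were tested, 7 rose, 4 fell and 12 did not pass, with a median log2 fold change of 0.26. For comparison, 19.6% of all genes tested in this muscle were called higher and 18.3% lower. Sesn1, a stress-induced inhibitor of mTORC1 signalling, had 247, 82.0 and 165 CPM in CT-26 mice against 10.8, 14.1 and 14.2 CPM in controls (log2 fold change 3.66, SE 0.38, edgeR adjusted p = 0.00045). Eda2r, a receptor of the TNF receptor family, had 55.9, 57.7 and 43.8 CPM in CT-26 mice against 15.8, 14.4 and 11.1 CPM in controls (log2 1.93, SE 0.17, edgeR adjusted p = 0.00029). Both showed the same separation of groups as Cdkn1a. Gadd45b rose by 1.40 on the log2 scale (SE 0.20, adjusted p = 0.00136) and the p53 target Phlda3 by 0.84 (SE 0.13, adjusted p = 0.00175). Trp53inp1 (log2 1.325, SE 0.36, edgeR adjusted p = 0.02155) and Aen (log2 0.66, SE 0.11, edgeR adjusted p = 0.00261) of this list rose as well. Gadd45g, the remaining family member, did not pass, at 54.1, 26.3 and 27.97 CPM in CT-26 mice and 40.7, 47.5 and 24.5 CPM in control mice.

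Other genes of that list went the opposite way from Cdkn1a. Ccng1, another p53 target, had 362, 437 and 394 CPM in CT-26 mice against 1093, 1259 and 1085 CPM in controls (log2 fold change -1.53, SE 0.15, edgeR adjusted p = 0.00042). Among the CDK inhibitors, Cdkn2b fell (log2 -1.85, adjusted p = 0.00289) and Cdkn1c, p57, fell (log2 -0.75, adjusted p = 0.0346), while Cdkn1b, p27, was at 44.2, 48.2 and 35.2 CPM in CT-26 mice and 37.8, 40.0 and 32.3 CPM in control mice and did not pass. The cyclin gene Ccnd1 also fell (log2 -2.04, adjusted p = 0.00643). Trp53 itself rose (log2 0.35, adjusted p = 0.0427), and Mdm2, its negative regulator and target, did not pass (log2 0.26, adjusted p = 0.147). Cdkn1b, Cdkn1c, Cdkn2b, Ccnd1, Gadd45g, Trp53, Mdm2, Trp53inp1 and Aen were singled out after their values were seen.

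Markers of fibroblasts were lower in CT-26 muscle beside these genes. Of 8 tested, 7 fell, none rose and 1 did not pass, with a median log2 fold change of -1.55 and a summed level of 348 to 474 CPM in CT-26 libraries and 931 to 1477 CPM in control libraries. Col1a1, a chain of type I collagen, had 17.2, 15.4 and 33.4 CPM in CT-26 mice against 384, 502 and 232 CPM in controls (log2 -4.08, SE 0.39, edgeR adjusted p = 0.00036). Pdgfra, the growth factor receptor that marks fibro-adipogenic progenitors, had 14.1, 16.9 and 16.9 CPM in CT-26 mice and 14.3, 16.0 and 18.2 CPM in control mice and did not pass (log2 -0.02, adjusted p = 0.934). The part of these cells in the falls of Ccnd1, Cdkn2b and the partner genes of the bHLH factors was not tested.

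Runx1 (ENSMUSG00000022952, chromosome 16, 92601466 to 92826149, minus strand), a DNA-binding factor of blood development that denervated muscle also induces, had 8.75, 7.82 and 5.02 CPM in CT-26 mice against 1.497, 2.05 and 1.67 CPM in controls. Those control values rest on 41, 56 and 47 counts. All CT-26 libraries were above all controls, and the log2 fold change was 2.05 (SE 0.25, edgeR adjusted p = 0.00079), a 4.13-fold rise, with 1.75 to 2.43 over the alternatives. Per length Runx1 was the least abundant member in control muscle, at 0.373 ± 0.118 TPM (SD, n = 3), and it stood at 2.53 ± 0.99 TPM in CT-26 muscle, where its range of 1.60 to 3.57 TPM overlapped that of Ncam1.

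Leukocytes also express Runx1, and leukocyte markers were mostly higher in CT-26 muscle too. Of 12 such genes 8 were tested, 5 rose and none fell, and their summed level was 141, 32.1 and 51.9 CPM in CT-26 mice against 21.2, 22.1 and 20.1 CPM in controls. Among the CT-26 mice this sum was lowest in mouse 2, whereas Runx1 was lowest in mouse 3. Much of the sum in CT-26 mouse 1 was S100a8 and S100a9, neutrophil genes, at 49.96 and 37.3 CPM. Ptprc, the pan-leukocyte gene CD45, had 3.73, 1.67 and 2.69 CPM in CT-26 mice and 1.39, 1.06 and 1.42 CPM in control mice, and Csf1r, a macrophage gene, did not pass (log2 -0.42, adjusted p = 0.186). Without CT-26 mouse 1 the Runx1 log2 fold change was 1.88 (edgeR adjusted p = 0.00335). The part of leukocyte RNA in the Runx1 result was not tested. Of the 6 other RUNX family and cofactor genes 5 were tested, and 1 passed: Cbfb, the binding partner that RUNX proteins require, had 60.3, 83.5 and 53.05 CPM in CT-26 mice against 123, 131 and 104 CPM in controls (log2 -0.86, SE 0.19, edgeR adjusted p = 0.00813). With TPM in place of counts the Cbfb call was lost (log2 -0.50, limma adjusted p = 0.088).

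The myogenic bHLH factors did not move as a block. Myf6 (MRF4; ENSMUSG00000035923, chromosome 10, 107492853 to 107494737, minus strand), the factor of this family that predominates in adult fibres, rose modestly. It had 101, 107 and 111 CPM in CT-26 mice against 63.4, 85.7 and 66.4 CPM in controls, with no overlap (log2 fold change 0.57, SE 0.14, edgeR adjusted p = 0.0159). The call was lost without control mouse 1 (log2 0.48, adjusted p = 0.0758) and without control mouse 3 (log2 0.51, adjusted p = 0.063). Myf6 was the most abundant member in control muscle, at 60.2, 77.3 and 51.9 TPM. In CT-26 muscle it had 132, 114 and 118 TPM, within the range of Cdkn1a.

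Myod1 (ENSMUSG00000009471, chromosome 7, 46376474 to 46379099, plus strand), the determination factor of myoblasts and fast fibres, fell. It had 6.46, 13.05 and 14.2 CPM in CT-26 mice against 24.2, 25.1 and 15.5 CPM in controls. Control mouse 3 lay close to the CT-26 mice, and the log2 fold change was -0.95 (SE 0.30, edgeR adjusted p = 0.0374). The call was lost when libraries were scaled by their totals alone (log2 -0.77, adjusted p = 0.0677), on the TPM scale (log2 -0.59 with a pseudocount of 0.5 and -0.61 with 0.1, limma adjusted p = 0.124 and 0.119), and without CT-26 mouse 1 (log2 -0.66, adjusted p = 0.0595), control mouse 1 (log2 -0.87, adjusted p = 0.108) or control mouse 2 (log2 -0.83, adjusted p = 0.109). On those scales the median of all genes moved as well, to 0.20 with library totals and 0.28 with TPM and a pseudocount of 0.5, so a gene at 0 there is below the typical gene.

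Myog (ENSMUSG00000026459, chromosome 1, 134289989 to 134292548, plus strand), myogenin, was not called. It had 22.4, 4.99 and 24.2 CPM in CT-26 mice, against 5.51, 13.3 and 4.23 CPM in controls. CT-26 mice 1 and 3 were above every control, whereas CT-26 mouse 2 lay among the lower controls. The log2 fold change was 1.17 with an SE of 0.59 (edgeR adjusted p = 0.149). Without CT-26 mouse 2 it was 1.60 and passed (adjusted p = 0.0159); it passed under none of the other 12 alternatives, where the log2 fold change ran up to 1.82. The embryonic myosin gene Myh3, chosen for mention after its values were seen, was called higher (log2 2.58, SE 0.70, edgeR adjusted p = 0.02075). Myh3 had 60.8, 5.50 and 24.1 CPM in CT-26 mice and 6.06, 4.84 and 4.30 CPM in controls. CT-26 mouse 2 was thus also the lowest of its group for Myh3, and it lay within the control range.

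**Figure D2:**
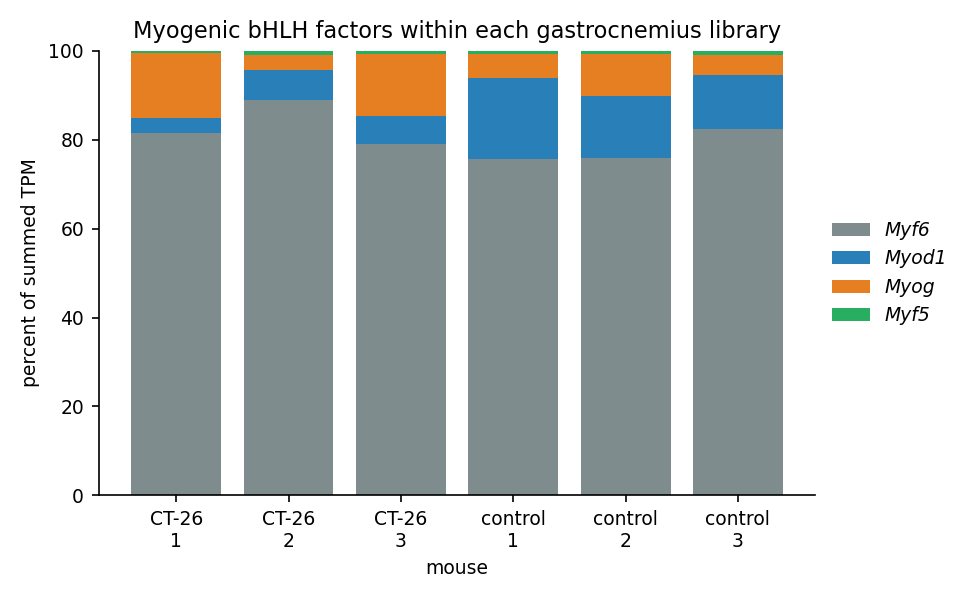
Share of Myf6, Myod1, Myog and Myf5 in their summed TPM within each gastrocnemius library (percent; CT-26 mice 1 to 3, then control mice 1 to 3). The Myod1 segment is 3.28 to 6.85% in CT-26 libraries and 12.3 to 18.2% in control libraries, and Myf6 is the largest segment in every library.

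Shares within a library do not depend on how libraries are scaled, but a share also falls when another gene in the sum rises. Myf6, the largest part in every library, rose. Myod1 by itself overlapped between the groups in TPM, at 5.3, 8.8 and 9.48 TPM in CT-26 mice and 14.5, 14.3 and 7.73 TPM in control mice. Of the summed TPM of Myog, Myod1, Myf6 and Myf5, Myod1 made up 3.28, 6.85 and 6.37% in CT-26 mice and 18.2, 14.0 and 12.3% in control mice. The groups did not overlap (two-sided exact permutation p = 0.1, the smallest possible here). The TPM ratio of Myf6 to Myod1 was 24.9, 12.98 and 12.4 in CT-26 and 4.15, 5.42 and 6.71 in control mice, again without overlap (exact permutation p = 0.1). The Myog share overlapped, at 14.7, 3.38 and 14.0% in CT-26 and 5.36, 9.58 and 4.30% in control mice (exact permutation p = 0.4). Myf5, the fourth factor of the family, was at most 1.06% in any library. The summed TPM itself was 162, 129 and 149 in CT-26 mice against 79.6, 102 and 63.0 in controls (exact permutation p = 0.1).

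None of the listed partners, inhibitors and upstream factors of these proteins rose in the gastrocnemius, where 17 of 21 were tested, 4 fell and 13 did not pass (median log2 fold change -0.30). Bhlhe41, a transcriptional repressor that can inhibit MyoD, had 22.0, 35.4 and 26.5 CPM in CT-26 mice against 105, 89.8 and 60.7 CPM in controls (log2 -1.61, SE 0.24, edgeR adjusted p = 0.00174). Of the Id proteins, which sequester the E-protein partners of the bHLH factors, 2 of 4 fell, Id2 (0.551, 0.426 and 0.299 CPM in CT-26 mice, 1.20, 1.28 and 0.711 CPM in control mice; log2 -1.30, SE 0.36, edgeR adjusted p = 0.0222) and Id4 (log2 -1.21, SE 0.36, edgeR adjusted p = 0.0286). Both were at low levels, and Id1 (log2 -0.30, adjusted p = 0.619) and Id3 (log2 -0.42, adjusted p = 0.277) did not pass. Six4, a homeobox activator of myogenic genes, fell by 0.57 on the log2 scale (SE 0.17, edgeR adjusted p = 0.0279). The calls of Id2, Id4 and Six4 were lost with TPM, and those of Id4 and Six4 also with library totals. The satellite cell gene Pax7, upstream of Myod1 and Myf5, was at 1.10, 2.44 and 1.23 CPM in CT-26 mice and 1.46, 1.98 and 1.56 CPM in control mice and did not pass. Id1, Id3 and Pax7 were singled out after their values were seen.

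Markers of satellite cells, where Myod1 and Ncam1 are also expressed, gave no single direction. Of 8 tested, 2 rose, 1 fell and 5 did not pass. The summed level was 186 to 216 CPM in CT-26 libraries and 92.2 to 99.0 CPM in control libraries. Cdh15, M-cadherin, had 60.7, 58.4 and 51.2 CPM in CT-26 mice against 15.4, 16.7 and 14.9 CPM in controls, and Itga7, which fibres express as well, also rose (log2 1.06, edgeR adjusted p = 0.000596). Calcr, a gene of quiescent satellite cells, fell to 0.275, 0.387 and 0.209 CPM in CT-26 mice, against 1.02, 1.25 and 1.53 CPM in controls. The part of satellite cells in the myogenic factor results was not tested.

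Among the class IIa deacetylases, Hdac4 (ENSMUSG00000026313, chromosome 1, 91928779 to 92195699, minus strand) had 17.2, 20.6 and 18.4 CPM in CT-26 mice against 23.6, 24.3 and 29.5 CPM in controls. The groups did not overlap on this scale, and Hdac4 was called lower (log2 fold change -0.47, SE 0.13, edgeR adjusted p = 0.026). On the TPM scale it had 4.73, 4.76 and 3.85 TPM in CT-26 and 4.56, 4.96 and 4.49 TPM in control mice, which overlapped. The call was lost with library totals (log2 -0.27, adjusted p = 0.139), with TPM and a pseudocount of 0.5 (log2 -0.07, limma adjusted p = 0.802), and in 4 of the 6 fits that left out a library: CT-26 mouse 1 (log2 -0.40, adjusted p = 0.0817), CT-26 mouse 3 (-0.45, 0.0576), control mouse 2 (-0.51, 0.0555) and control mouse 3 (-0.36, 0.0897). A rise of Hdac4 mRNA, known from denervated muscle, was therefore not seen on any of the scales tried.

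Hdac9 (ENSMUSG00000004698, chromosome 12, 34047580 to 34917095, minus strand), whose shortened product MITR represses MEF2 targets in innervated muscle, had 3.75, 2.59 and 3.77 CPM in CT-26 mice against 7.38, 7.15 and 3.13 CPM in controls. Control mouse 3 lay inside the CT-26 range. The lowest Hdac9 libraries rest on few counts, 67 in CT-26 mouse 2 and 88 in control mouse 3. The log2 fold change of -0.79 (SE 0.32) did not pass (edgeR adjusted p = 0.0836). It passed with DESeq2 (log2 -0.80, adjusted p = 0.0468) and without control mouse 3 (log2 -1.10, edgeR adjusted p = 0.00969). The TPM ratio of Hdac4 to Hdac9 overlapped between the groups, at 3.88, 7.10 and 3.89 in CT-26 and 2.58, 3.12 and 7.88 in control mice (exact permutation p = 0.8).

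The MEF2 factors, the other deacetylases and their export kinases changed in both directions, with 5 of 19 higher, 3 lower and 11 not passing (median log2 fold change 0.09). Among all tested genes of this muscle, 19.6% were called higher and 18.3% lower. Hdac5, a close relative of Hdac4, had 113, 98.4 and 89.7 CPM in CT-26 mice against 57.0, 56.7 and 55.6 CPM in controls (log2 0.83, SE 0.13, edgeR adjusted p = 0.00177). Per length it had 59.9, 42.5 and 39.6 TPM in CT-26 and 25.3, 24.2 and 19.4 TPM in control mice, above Hdac4 in every library. Prkd1, protein kinase D1, which drives class IIa deacetylases out of the nucleus, had 8.13, 8.79 and 4.87 CPM in CT-26 mice against 1.83, 1.54 and 2.35 CPM in controls (log2 1.93, SE 0.27, edgeR adjusted p = 0.00135). Hdac5 and Prkd1 rose with no overlap between groups. The other kinase D genes differed in direction. Prkd2 was called lower (log2 -0.77, SE 0.22, edgeR adjusted p = 0.0269) and Prkd3 higher (log2 0.34, SE 0.11, edgeR adjusted p = 0.0427). Prkd2 and Prkd3 were singled out after their values were seen.

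Camk2a, a calcium-dependent kinase of the same deacetylases, fell to 155, 287 and 162 CPM in CT-26 mice, against 453, 511 and 380 CPM in controls (log2 -1.16, SE 0.25, edgeR adjusted p = 0.00871). Mef2c, a MEF2 factor of muscle fibres, had 277, 373 and 224 CPM in CT-26 mice against 565, 551 and 505 CPM in controls (log2 -0.89, SE 0.20, edgeR adjusted p = 0.00905), a call lost with TPM (log2 -0.40, limma adjusted p = 0.14). Mef2b rose (log2 1.52, SE 0.28, edgeR adjusted p = 0.00423) at a low level, with 1.08 to 1.504 CPM in CT-26 mice and 0.391 to 0.513 CPM in control mice.

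Ncam1 (ENSMUSG00000039542, chromosome 9, 49502136 to 49798925, minus strand), the neural cell adhesion molecule, had 8.20, 4.96 and 5.89 CPM in CT-26 mice against 4.09, 4.43 and 4.97 CPM in controls. CT-26 mouse 1 was highest, and CT-26 mouse 2 lay just below the top control. The log2 fold change of 0.50 (SE 0.21) did not pass (edgeR adjusted p = 0.0894). The result depended on the scale. In TPM the groups did not overlap, at 3.95, 1.80 and 2.08 TPM in CT-26 and 1.19, 1.10 and 1.25 TPM in control mice, and limma called it (log2 0.83 with a pseudocount of 0.5, adjusted p = 0.0249). It was also called with library totals (log2 0.72, edgeR adjusted p = 0.033) and without CT-26 mouse 2 (log2 0.64, adjusted p = 0.0347), while without CT-26 mouse 1 the log2 fold change was 0.27 (adjusted p = 0.279).

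The estimated length of the Ncam1 transcripts differed as well. The deposited tables give each gene a length, the mean over its annotated transcripts weighted by their estimated abundance, and TPM divides by a length of this kind. For Ncam1 it was 2997, 3267 and 3289 bases in CT-26 muscle and 3561, 3952 and 3504 bases in control muscle. It was shorter in every CT-26 library, by 13.3% (two-sided exact permutation p = 0.1, the smallest possible). Among 11870 tested genes whose length varied, 9.35% were shorter in CT-26 with no overlap. The controls had only 112 to 140 Ncam1 counts per library, so the estimate rests on few fragments. In the hypothalamus Ncam1 had at least 12621 counts per library and lengths of 5710, 5680 and 5796 bases in CT-26 and 5672, 5452 and 5573 bases in control mice, longer in every library than in any muscle library. CT-26 lengths there were longer than control lengths with no overlap, as for 7.14% of tested genes whose length varied.

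Runx1 also had a shorter mean transcript in CT-26 muscle, at 3498, 3784 and 3611 bases against 5000, 3980 and 4636 bases in controls, a difference of -20.0% (exact permutation p = 0.1), again with few counts in the controls. Gadd45a and Cdkn1a went the other way by small amounts. The Gadd45a length was 1202, 1179 and 1198 bases in CT-26 muscle and 1177, 1174 and 1178 bases in control muscle, 1.42% longer, and the Cdkn1a length was 0.244% longer (exact permutation p = 0.1 for each). Both were longer in CT-26 with no overlap, as were 6.27% of tested genes whose length varied. Lengths of Hdac4 and Hdac9 overlapped between the groups in both tissues. Myog, Myod1 and Myf6 have 1 annotated transcript each, so no such change could appear. Which transcripts made the difference was not resolved by gene-level tables.

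**Figure D3:**
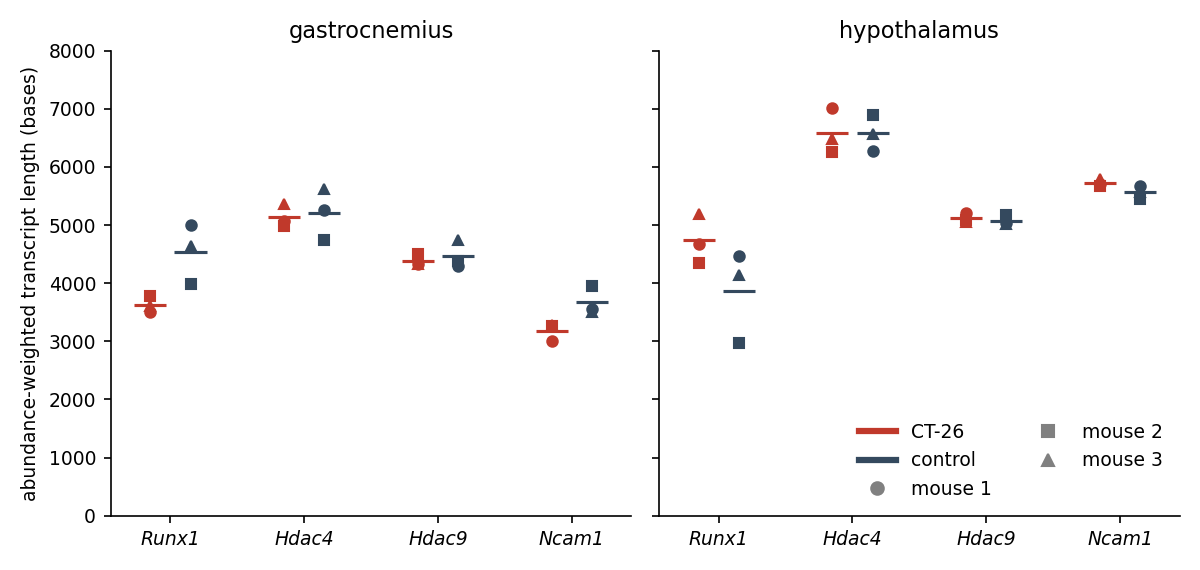
Abundance-weighted mean transcript length in bases of the 4 members with several long transcripts, CT-26 in red left of control in dark blue, in each tissue; marker shapes are mice and bars are means. In gastrocnemius, Runx1 and Ncam1 are shorter in every CT-26 library than in any control library, and Hdac4 and Hdac9 overlap.

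Genes related to NCAM and its signalling were mixed in muscle, with 8 of 11 tested, 2 higher, 1 lower and 5 not passing (median log2 fold change -0.45). Gdnf, a neurotrophic factor that can signal through NCAM, had 2.73, 2.17 and 2.27 CPM in CT-26 mice against 0.584, 1.10 and 0.782 CPM in controls (log2 1.54, SE 0.28, edgeR adjusted p = 0.00373). Its co-receptor Gfra1 went the other way, at 0.805, 1.32 and 0.897 CPM in CT-26 mice against 3.98, 4.58 and 3.52 CPM in controls (log2 -2.02, SE 0.25, edgeR adjusted p = 0.00077). Fgfr1, a receptor that NCAM can engage, rose by 0.46 (SE 0.14, edgeR adjusted p = 0.0341), and its call was lost in 5 of 13 alternatives.

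Markers of Schwann cells, which also express Ncam1 and Gfra1, were mostly lower in CT-26 muscle. Of 8 Schwann markers 6 fell, 1 rose and 1 did not pass, and their sum was 47.2, 65.7 and 47.3 CPM in CT-26 mice against 94.7, 110 and 127 CPM in controls. The exception was Ngfr, the p75 neurotrophin receptor, at 7.71, 13.8 and 4.90 CPM in CT-26 against 1.24, 2.60 and 0.960 CPM in control mice (log2 2.45, edgeR adjusted p = 0.00456). The part of these cells in the Ncam1 and Gfra1 values was not tested. Neuron markers summed to 4.92 to 6.90 CPM in CT-26 muscle and 6.08 to 7.75 CPM in control muscle.

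The other genes known to respond to loss of innervation mostly rose beside the members. Of 15 listed 13 were tested, 9 rose, 1 fell and 3 did not pass, with a median log2 fold change of 1.26, against 0.57 over the members. Fbxo32 (atrogin-1) and Trim63 (MuRF1), ubiquitin ligases of muscle atrophy in general, were among those that rose. Fbxo32 had 2192, 1860 and 1655 CPM in CT-26 mice against 118, 194 and 179 CPM in controls (log2 3.54, SE 0.24, edgeR adjusted p = 0.00011). Trim63 had 1185, 845 and 1346 CPM in CT-26 mice against 114, 109 and 94.1 CPM in controls (log2 3.41, SE 0.21, edgeR adjusted p = 9.373e-05). Ankrd1, a stretch-responsive protein of the sarcomere, had 161, 71.6 and 120 CPM in CT-26 mice against 6.10, 4.51 and 7.11 CPM in controls (log2 4.31, SE 0.33, edgeR adjusted p = 0.00016).

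The acetylcholine receptor subunit genes, some of which myogenin is known to drive after denervation, moved in both directions. Chrnb1 had 61.9, 74.0 and 57.1 CPM in CT-26 mice against 29.6, 30.0 and 29.3 CPM in controls (log2 1.12, SE 0.13, edgeR adjusted p = 0.00066), and Chrna1 had 39.4, 44.3 and 29.4 CPM in CT-26 against 12.05, 17.0 and 18.05 CPM in control mice (log2 1.26, edgeR adjusted p = 0.00226). Chrne, the subunit of the mature junction, fell to 4.47, 6.78 and 5.08 CPM in CT-26 mice, against 12.8, 14.6 and 14.3 CPM in controls (log2 -1.36, SE 0.17, edgeR adjusted p = 0.00095). Chrng, the fetal subunit that returns after denervation, was too low to test, at 0.106, 0.194 and 0.269 CPM in CT-26 mice and 0.183, 0.110 and 0.178 CPM in control mice. Musk, the junction's receptor kinase, and Chrnd did not pass (adjusted p = 0.67 and 0.86). Chrna1, Chrnd, Chrng and Musk were singled out after their values were seen.

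**Figure D4:**
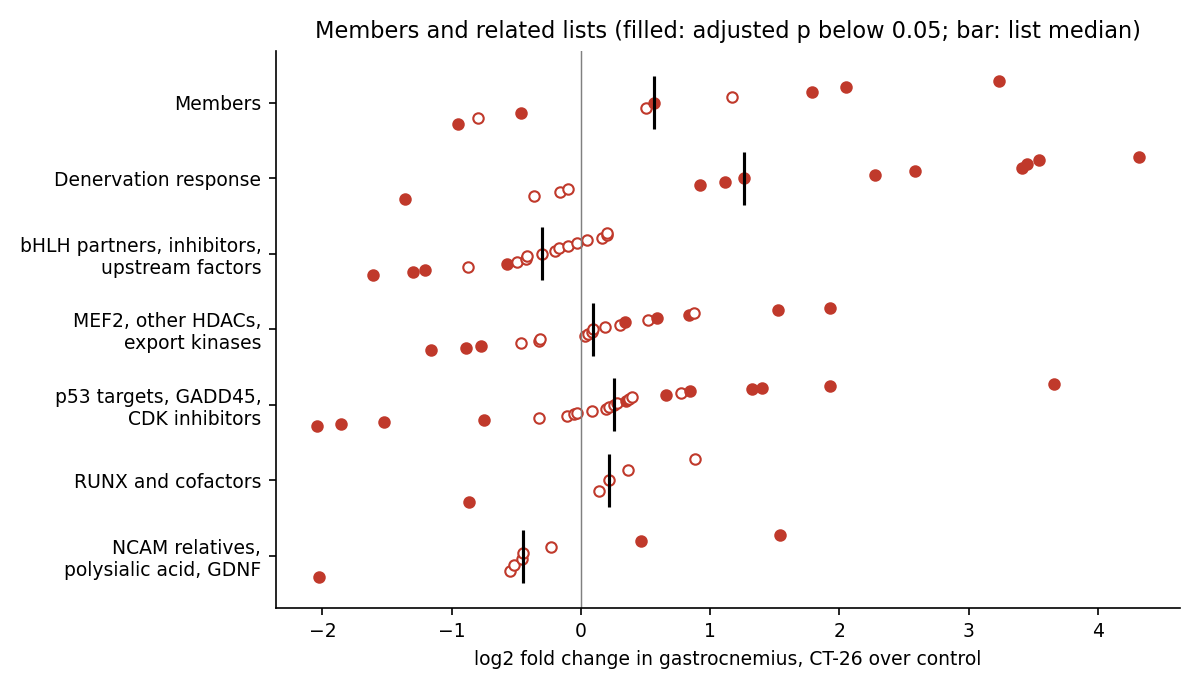
Log2 fold change in gastrocnemius, CT-26 over control, of the 9 members and of the tested genes of 6 related lists; each point is a gene, filled where edgeR's adjusted p is below 0.05, and vertical bars mark medians. The denervation list has the highest median, 1.26, and the bHLH partner list has no filled point above 0.

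In the hypothalamus, 1 of the 6 members tested rose, Runx1, and none fell, where 8.77% of 17961 tested genes were called, 3.94% as higher and 4.83% as lower. Myog, Myod1 and Myf6 had 0 to 4 counts per library there and were not tested. Runx1 had 1.36, 1.48 and 1.47 CPM in CT-26 mice against 0.576, 0.886 and 0.690 CPM in controls, on 17 to 77 counts per library. The groups did not overlap (log2 fold change 0.99, SE 0.23, edgeR adjusted p = 0.0244). The call was lost in 8 of 13 alternatives, among them DESeq2 (log2 1.00, adjusted p = 0.0581), TPM with a pseudocount of 0.5 (log2 0.22, limma adjusted p = 0.364) and the fits without CT-26 mouse 1, 2 or 3 or control mouse 1 or 3 (log2 0.85 to 1.02, adjusted p = 0.0537 to 0.0775). Leukocyte markers summed to 142, 109 and 75.8 CPM in CT-26 hypothalamus and 82.4, 79.6 and 74.7 CPM in control hypothalamus, with 2 of 8 tested genes higher; their part was not tested.

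Cdkn1a had 41.0, 20.1 and 49.6 CPM in CT-26 hypothalamus against 13.6, 20.9 and 27.7 CPM in controls. CT-26 mouse 2 lay among the controls and the log2 fold change of 0.84 (SE 0.30) did not pass (edgeR adjusted p = 0.105). Without that mouse it was 1.15 and passed (adjusted p = 0.00994). It was also called with no filter on low counts, at the same size (log2 0.85) and with the same overlapping libraries, in a fit that called 2598 genes, against 1575 with the filter. The other 11 alternatives did not call it. CT-26 mouse 2 was also the lowest CT-26 library for Cdkn1a in the gastrocnemius. Gadd45a was 6.94, 6.78 and 8.24 CPM in CT-26 hypothalamus and 8.23, 7.50 and 7.30 CPM in control hypothalamus and did not pass (log2 -0.06, SE 0.11); E230016M11Rik, on the opposite strand, reached 250.6 counts in 1 library there, and the strand setting of the counting is not given in the sources used here.

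Hdac4 had 41.3, 41.6 and 41.9 CPM in CT-26 hypothalamus and 35.9, 36.5 and 42.4 CPM in control hypothalamus and did not pass (log2 0.12, SE 0.07). Hdac9 did not pass either, at 28.2, 31.2 and 30.4 CPM in CT-26 mice and 27.3, 34.4 and 28.6 CPM in control mice (log2 -0.01, SE 0.09). Ncam1 was the most abundant member of the hypothalamus per length, at 88.2 ± 3.34 TPM in CT-26 and 98.3 ± 2.53 TPM in control mice (SD, n = 3). In CPM it was 452, 456 and 464 in CT-26 mice against 495, 491 and 472 in controls, lower in every CT-26 library but by a small margin (log2 -0.09, SE 0.05), and the change was not called (edgeR adjusted p = 0.264). Non-overlap of this kind was seen for 30.3% of tested genes. Among the 11 tested genes related to NCAM, 3 were called there, all lower: L1cam by 0.21 (SE 0.05, edgeR adjusted p = 0.0288), Nfasc by 0.23 (SE 0.05, edgeR adjusted p = 0.0206) and Gap43, a growth cone protein named after its value was seen, by 0.18 (SE 0.04, edgeR adjusted p = 0.0359) on the log2 scale. The calls of L1cam and Nfasc were lost in 8 and 7 of 13 alternatives, at adjusted p up to 0.15 and 0.113. The cell adhesion relatives Ncam2, Chl1 and Nrcam did not pass.

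The related lists held few calls in the hypothalamus. From the denervation list 2 of 7 tested genes fell, Fbxo32 (7.66, 10.3 and 8.85 CPM in CT-26 against 12.8, 12.7 and 12.4 CPM in control mice; log2 -0.50, edgeR adjusted p = 0.0198) and Kcnn3, a calcium-activated potassium channel (log2 -0.34, edgeR adjusted p = 0.0234). Fbxo32 thus fell there and rose in muscle. The kinase gene Sik2 fell (log2 -0.41, edgeR adjusted p = 0.0298), the 1 call among 19 MEF2 and deacetylase genes. From the p53 list 3 of 22 fell, Ccnd1 (log2 -0.29, edgeR adjusted p = 0.0211), Zmat3 (log2 -0.18, edgeR adjusted p = 0.0283) and Gadd45b (log2 -0.77, edgeR adjusted p = 0.0453), the last of which rose in muscle and was singled out here after its value was seen. None of 5 RUNX genes passed. These calls were not firm: Zmat3 lost its call in 10 of 13 alternatives, Kcnn3 and Sik2 in 6 each, and Fbxo32 and Ccnd1 in 5 each.

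**Figure D5:**
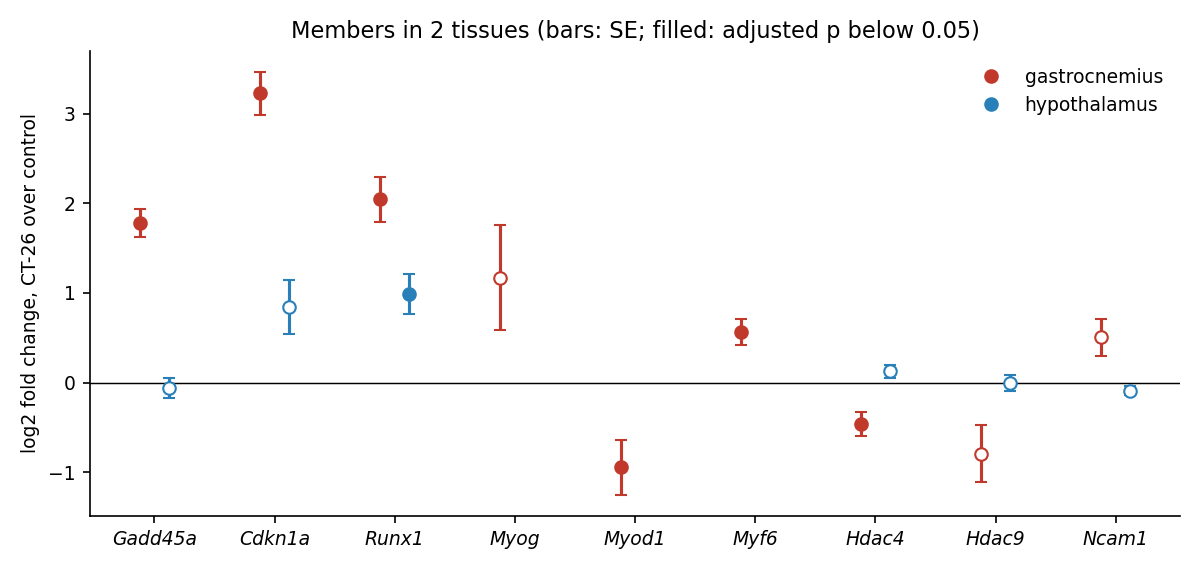
Log2 fold change, CT-26 over control, of the members in gastrocnemius (red) and hypothalamus (blue); bars are standard errors over 3 mice per group and filled points have an edgeR adjusted p below 0.05. Cdkn1a, Gadd45a and Runx1 lie higher in gastrocnemius than in hypothalamus, and Myog, Myod1 and Myf6 were tested in gastrocnemius only.

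The difference between tissues was tested as an interaction over all 12 libraries, in which 26.4% of 18746 genes were called, 12.4% as higher and 14.0% as lower in the gastrocnemius. Of the 6 members tested in both tissues, 5 differed. The CT-26 effect was higher in the gastrocnemius by 2.38 for Cdkn1a (SE 0.46, edgeR adjusted p = 0.00214), by 1.83 for Gadd45a (SE 0.19, edgeR adjusted p = 4.06e-05) and by 1.04 for Runx1 (SE 0.35, edgeR adjusted p = 0.0421) on the log2 scale. It was also higher for Ncam1, by 0.58 (SE 0.20, edgeR adjusted p = 0.0499), and lower for Hdac4, by -0.60 (SE 0.15, edgeR adjusted p = 0.0109). Hdac9 did not pass (-0.79, SE 0.34, adjusted p = 0.106). Both tissues came from the same mice, and with the mouse as a block the calls of Runx1 (0.98, adjusted p = 0.0736) and Ncam1 (0.56, adjusted p = 0.0901) were lost, which left 3 of 6. Calls of Runx1 and Ncam1 were each lost in 5 of the 6 fits that left out a mouse, and Hdac4 lost its call with TPM (-0.16, limma adjusted p = 0.511).

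The order of members by level changed with condition in the muscle. In CT-26 gastrocnemius it ran Cdkn1a, Myf6, Gadd45a, Myog, Myod1, Hdac4, Ncam1, Runx1 and Hdac9, from 146 to 0.96 TPM on average. In control gastrocnemius it ran Myf6, Myod1, Cdkn1a, Gadd45a, Myog, Hdac4, Hdac9, Ncam1 and Runx1, from 63.1 to 0.373 TPM. In CT-26 muscle the neighbours Cdkn1a and Myf6, Myog and Myod1, Hdac4 and Ncam1, and Ncam1 and Runx1 had overlapping ranges. In control muscle Myod1 and Cdkn1a, Gadd45a and Myog, Myog and Hdac4, and Hdac9 and Ncam1 did.

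For each member, the gene with the most similar profile was found as the smallest root mean square difference of log2 CPM, each gene centred on its own mean, over the 6 gastrocnemius libraries and 10176 candidate genes. The nearest were Fbxo31 for Gadd45a (0.085), Eif4ebp1 for Cdkn1a (0.17), Ctsl for Runx1 (0.092) and Emd for Myf6 (0.064). For Myog the nearest gene, Btg2, was still 0.25 away, the widest gap of the 9. The remaining nearest genes were Scara3 for Myod1 (0.17), Pigg for Hdac4 (0.052), Nrarp for Hdac9 (0.14) and Tln1 for Ncam1 (0.044). Among the members themselves, Gadd45a and Runx1 had the most similar profiles, 0.18 apart. These profiles share their 6 libraries, so the distances describe them and carry no test.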

How the data were processed

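Tissues were sequenced as 100 bp pairs from a directional library kit, per the labels' protocols. The submitters' processing notes name RSEM 1.3.3, STAR 2.7.9a, Trim Galore 0.6.6 and the build GRCm38. Annotation release and strand setting are not given in the sources used here. Per the file headers, the deposited tables hold RSEM expected counts (estimated fragments per gene, which need not be whole), TPM (relative transcript level per length) and a mean transcript length in bases per gene.

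Expected counts were rounded and tested per tissue with edgeR 4.0.16 in R 4.3.3: filterByExpr (minimum count 10), TMM scaling, the quasi-likelihood test and Benjamini-Hochberg adjustment over all genes tested. The difference between tissues was the interaction in a fit of all 12 libraries. Standard errors were taken from the test statistic. Gene symbols and coordinates are those of the GENCODE M21 annotation of GRCm38. Replicates of a group differed by more than sampling noise (chi-square per gene 6.29 to 179 over 12 pairs).

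Alternatives were DESeq2 1.42.0, library totals, other count filters, limma 3.58.1 on log2(TPM + 0.5) or log2(TPM + 0.1), a replicate block and leaving out each library or mouse. The main edgeR fit of each comparison was tested on simulated counts, where the share of false calls was somewhat above the nominal rate. The alternatives were not tested in this way. Equal mouse numbers in the titles join the tissues of 1 mouse, which pairs libraries between tissues. Across conditions, deviations of equally numbered libraries correlated at -0.057 to 0.26 in the gastrocnemius and -0.10 to 0.00013 in the hypothalamus. No reference value for unpaired libraries was computed, so these correlations do not settle whether equal numbers share a batch. The main fits did not pair libraries across conditions.

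The members and lists were chosen with earlier results of these data known. All members are named; from each of 6 related lists, up to 5 genes called in the gastrocnemius and up to 2 called in the hypothalamus with the smallest p are named, and any other gene named, markers included, was chosen after its values were seen. Some results of the related lists and markers are not reported here.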

Additional observations from a re-analysis of the deposited data

Results flagged for a closer look

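For 5 members the CT-26 effect differed between the gastrocnemius and the hypothalamus by a test of the difference itself (edgeR interaction, adjusted p below 0.05). On the log2 scale the effect in gastrocnemius minus that in hypothalamus was 2.377 for Cdkn1a, 1.828 for Gadd45a, 1.044 for Runx1, 0.585 for Ncam1 and -0.6048 for Hdac4. Cdkn1a and Gadd45a kept their calls in all 13 alternatives. Hdac4 kept its call in 11, Runx1 in 7 and Ncam1 in 6. The main fit did not take into account that both tissues came from the same mice. With the mouse as a block the calls of Runx1 and Ncam1 were lost.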

How the results depend on the processing

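In the gastrocnemius, Cdkn1a, Gadd45a and Runx1 stayed called in all 13 alternatives. Leaving out 1 library gave 3547 to 5450 called genes in the gastrocnemius (5417 with all) and 576 to 1266 in the hypothalamus (1575 with all); leaving out 1 mouse gave 3204 to 4604 for the interaction (4952 with all), with 3 or 4 of 6 members called (5 with all). The hypothalamus had 2598 calls with no filter on low counts and 520 or 534 with TPM and a pseudocount of 0.5 or 0.1. The cause was not tested. The replicate block joins equally numbered libraries within a tissue, a pairing that the labels do not state. With it 5721 genes were called in the gastrocnemius, with the same number of members, 6, and 1111 in the hypothalamus. With the mouse as a block the interaction gave 3867 genes and 3 of 6 members. The mouse block changed no call of a member other than Runx1 and Ncam1. Of calls in the gastrocnemius, 51.7% were higher, against 70.4% with library totals and 81.5% with TPM and a pseudocount of 0.5; in the hypothalamus 45.0% were higher, against 57.7% with library totals. In the hypothalamus the uncalled Hdac9 value of -0.01 turned positive with library totals (0.0215), with at least 1 CPM in 3 libraries (0.00743) and without CT-26 mouse 1 or control mouse 2, with a range of -0.0749 to 0.112 when 1 library was left out; Gadd45a turned positive without CT-26 mouse 2, with a range of -0.153 to 0.00583. Depth limits Runx1 and Ncam1 in control muscle and Runx1 in the hypothalamus, each with at most 140 counts per library. Hdac9 was also low in muscle, at 177, 67 and 126 counts in CT-26 mice and 202, 195 and 88 counts in control mice.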
